A study of Mus musculus with 12 samples.

Results

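The Ces1 carboxylesterase genes of the mouse, Ces1a to Ces1g, were described by the histone H3 lysine 9 acetylation (H3K9ac) that 6 liver libraries carried over them. The 7 genes were taken by name from the GENCODE M21 annotation of mm10, and a peak belonged to them when it overlapped, by at least 1 bp, the gene body or 5 kb either side of the start of 1 of them. The 7 genes were among 21911 protein-coding gene symbols, and 59 of the 102889 peaks in the 6 lists belonged to them, at 6 of the 7 genes. Ces1h, the next gene after Ces1g in the same orientation, was not among the listed members and is given with the other carboxylesterases. H3K9ac is a mark of active promoters and enhancers, and it was mapped by chromatin immunoprecipitation and sequencing (ChIP-seq) with a single antibody in adult livers. The groups were C57BL/6J (B6, 2 libraries from 2 mice), MSM/Ms (MSM, 2 libraries from 2 mice) and both reciprocal F1 hybrids, with 1 library per cross. In F1 BM the mother was B6 and the father MSM, and in F1 MB the mother was MSM and the father B6. The reference genome is of B6, and MSM belongs to another subspecies. The labels named no drug treatment or engineered allele, and the sex of the animals was not given in the sources used here. The series held 12 samples, and its 6 input libraries were not analysed here.

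Carboxylesterases are enzymes that cut ester, thioester and amide bonds, and most sit in the lumen of the endoplasmic reticulum of hepatocytes. They clear drugs and other foreign compounds, and several also act on triacylglycerol and cholesteryl esters. Where the human genome carries a single main CES1 gene, the mouse carries a tandem array of copies that have diverged in sequence and in use. Acetylation of H3K9 is usually found just downstream of the start of a transcribed gene, so a peak there marks a promoter in an active state without measuring how much RNA is made.

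All 7 genes lay on the minus strand of chromosome 8 in mm10, head to tail over 317 kb. Ces1a (ENSMUSG00000071047.5) ran from 93020214 to 93048192, Ces1b (ENSMUSG00000078964.2) from 93056728 to 93080017, and Ces1c (ENSMUSG00000057400.14) from 93099015 to 93131283. Ces1d (ENSMUSG00000056973.6) ran from 93166068 to 93197838, and Ces1e (ENSMUSG00000061959.13) from 93201218 to 93229619. Ces1f (ENSMUSG00000031725.8) ran from 93256236 to 93279747, and Ces1g (ENSMUSG00000057074.6) from 93302369 to 93337308. The start of each gene was its end coordinate, because the strand was minus. Only the windows of Ces1d and Ces1e shared sequence, and 0 peaks fell into the windows of 2 members.

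The sequences around the starts are shown because the strongest start peaks of the family lay just downstream of them. The RefSeq promoter table of GRCm38.p6, which gives 250 bases before to 50 bases after each start, matched 5 of the 7 genes (Ces1a, Ces1b, Ces1c, Ces1e and Ces1g). Ces1d and Ces1f were not matched. Sequences are written 5′ to 3′ on the minus strand. Capitals mark 8-base words that the printed or alternative promoters of at least 3 of the 5 genes shared. Overlapping words run together, so a run of more than 8 capitals need not be shared whole by 3 genes. For Ces1b, the table holds 2 starts, and the one 77 bp downstream of the GENCODE start is printed. For Ces1g the RefSeq start lay 99 bp downstream of the GENCODE start.
Ces1a (chr8:93048143-93048442): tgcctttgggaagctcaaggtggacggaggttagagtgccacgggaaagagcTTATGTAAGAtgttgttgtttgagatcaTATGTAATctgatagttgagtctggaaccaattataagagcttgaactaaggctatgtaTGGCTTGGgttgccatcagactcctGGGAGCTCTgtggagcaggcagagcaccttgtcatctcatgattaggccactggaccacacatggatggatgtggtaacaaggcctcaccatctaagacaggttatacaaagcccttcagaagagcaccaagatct
Ces1b (chr8:93079891-93080190): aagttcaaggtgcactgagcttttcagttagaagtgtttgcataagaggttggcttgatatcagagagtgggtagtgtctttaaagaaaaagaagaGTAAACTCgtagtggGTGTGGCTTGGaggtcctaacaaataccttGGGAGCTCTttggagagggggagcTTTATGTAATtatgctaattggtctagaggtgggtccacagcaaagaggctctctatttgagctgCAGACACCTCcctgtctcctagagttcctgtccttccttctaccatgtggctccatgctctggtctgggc
Ces1c (chr8:93131234-93131533): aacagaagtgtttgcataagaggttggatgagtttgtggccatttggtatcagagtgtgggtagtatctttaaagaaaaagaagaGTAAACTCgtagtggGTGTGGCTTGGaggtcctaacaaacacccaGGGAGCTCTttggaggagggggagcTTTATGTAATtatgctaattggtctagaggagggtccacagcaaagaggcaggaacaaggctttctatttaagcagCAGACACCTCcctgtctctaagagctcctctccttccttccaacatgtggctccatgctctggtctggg
Ces1e (chr8:93229570-93229869): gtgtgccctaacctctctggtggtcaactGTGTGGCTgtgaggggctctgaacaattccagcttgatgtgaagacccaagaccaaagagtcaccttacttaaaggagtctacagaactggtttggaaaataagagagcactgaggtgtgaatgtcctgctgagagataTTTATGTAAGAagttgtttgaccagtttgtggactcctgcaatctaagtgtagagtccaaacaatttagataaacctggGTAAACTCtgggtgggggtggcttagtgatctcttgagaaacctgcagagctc
Ces1g (chr8:93337160-93337459): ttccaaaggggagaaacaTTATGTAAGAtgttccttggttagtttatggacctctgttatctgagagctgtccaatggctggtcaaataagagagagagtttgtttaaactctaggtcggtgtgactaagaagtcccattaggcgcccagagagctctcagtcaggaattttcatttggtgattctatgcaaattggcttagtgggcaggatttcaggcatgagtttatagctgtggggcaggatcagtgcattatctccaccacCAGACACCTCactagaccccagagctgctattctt

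Ces1b and Ces1c had nearly the same promoter, with 85.2% of 297 aligned columns identical in a local alignment of the printed sequences. The other 9 pairs of printed promoters aligned at 59.4% to 63.1% identity over 138 to 283 columns. The word TTATGTAA stood in all 5 promoters, within TTTATGTAAT in Ces1b and Ces1c, TTTATGTAAGA in Ces1e and TTATGTAAGA in Ces1a and Ces1g. The stretch CAGACACCTC lay near the RefSeq start of the printed sequence in Ces1b, Ces1c and Ces1g, and GGGAGCTCT lay upstream in Ces1a, Ces1b and Ces1c.

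The promoters were low in CpG. Each held between 0 and 2 CpG sites, against a median of 7 over the 32851 promoters of the table, of which 23.3% held no more than 2. Their GC content was between 45.0% and 47.3%, against a median of 52.7%. A total of 6 motifs were searched on both strands, and no match overlapped a match to another motif. They were TATAAA, the core promoter box (held by 13.6% of all promoters in the table), CCAAT (the element of that name, 37.4%), GTTAAT (HNF1 half-site, 7.10%), CAAAGTCCA (HNF4A, 0.475%), TTGCNNAA (C/EBP, 10.8%) and TGACNNNGC (the core of the antioxidant response element, 12.4%). CCAAT was matched in 4 of the 5 promoters, at −143 in Ces1a, −68 in Ces1b, −78 in Ces1c, and −179 and −58 in Ces1g. Positions count from the RefSeq start of the printed sequence, where 0 is the start base and negative values lie upstream. The matches in Ces1a and at −179 in Ces1g were on the gene strand, and the others on the reverse strand. Counted from the GENCODE start of Ces1b, its CCAAT match lay at 9, downstream of that start. The C/EBP letters were matched on the gene strand, in Ces1b at −213 (−136 from its GENCODE start) and in Ces1c at −239. TATAAA was matched only in Ces1g at −26, and on the reverse strand, where the printed letters read TTTATA. None of the 6 was found in the printed promoter of Ces1e. These matches are descriptions of the letters and say nothing on what binds there.

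The 6 lists differed in length, and B6 replicates 1 and 2 stood furthest apart, with 22968 and 11619 peaks. The other lists held between 13235 (F1 MB) and 20173 (F1 BM) peaks. The median fold enrichment of the start peaks of all genes was between 3.84 (F1 BM) and 7.17 (B6 replicate 1). The labelled tissue was checked on marker genes fixed for liver cell types. All 8 hepatocyte markers had a start peak in every list, and the 5 Kupffer cell markers had none in any. Of 5 endothelial markers, between 0 and 4 had one, with 0 in B6 replicate 2 and F1 MB, and of the stellate, cholangiocyte and lymphocyte markers at most 1 of 4 had one in any list. A fold enrichment is the signal at the top of a peak divided by the background that the peak caller used, and the depth of sequencing was not used here, so a missing peak may have been too weak for its library. Whether fewer cells carried the mark or each cell carried less of it cannot be told apart in whole liver.

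Most genes of the family had an acetylated start. Of the 7 genes, 5 (Ces1b, Ces1c, Ces1d, Ces1e and Ces1f) had a peak within 1 kb either side of the start in all 6 lists, where 23.6% of all gene starts did. Ces1g had one in 3 lists. Ces1a had none within 1 kb of its start, nor a peak anywhere in its window, in any of the 6 lists, as was the case for the start of 54.2% of all genes. The neighbours of the array, Lpcat2, Capns2, Slc6a2, Ces1h and Ces5a, also had no peak in their windows in any list.

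**Figure D1:**
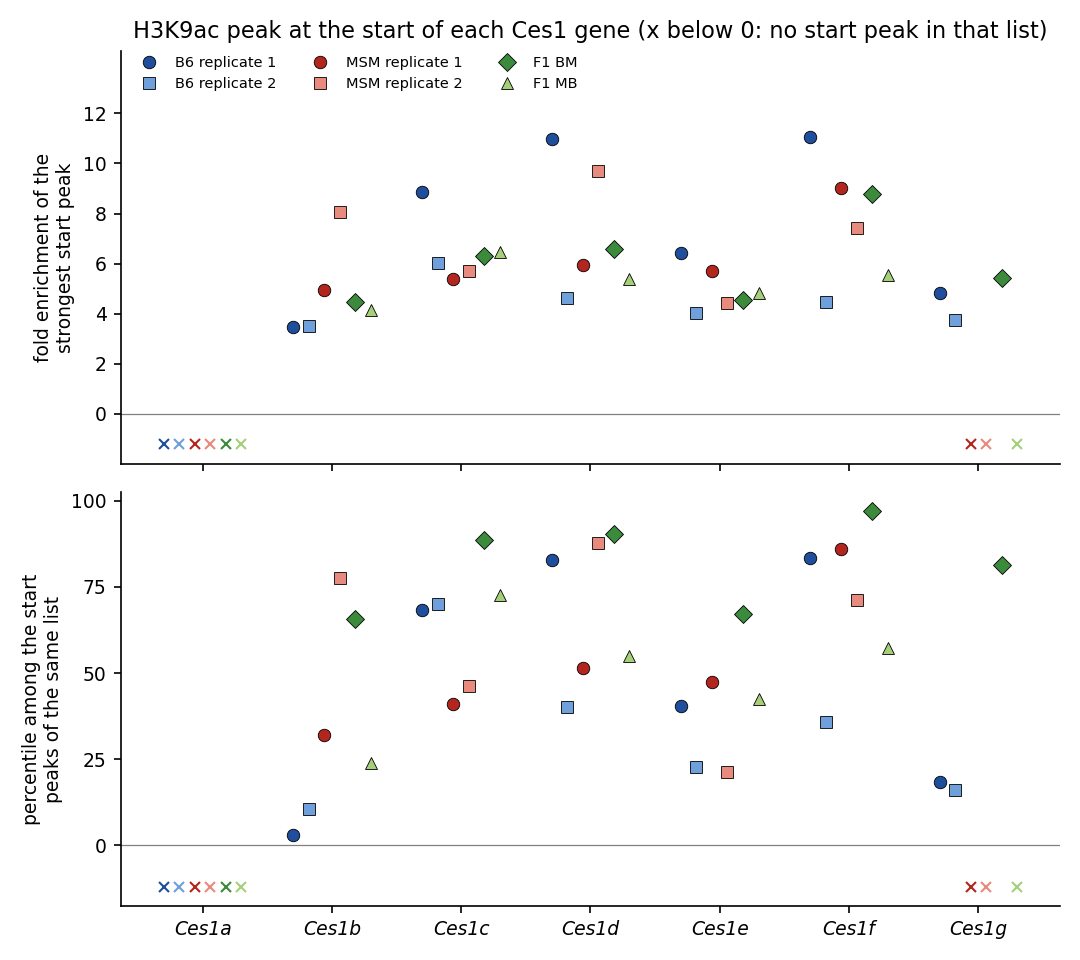
Upper panel: fold enrichment of the strongest peak within 1 kb either side of the start of each Ces1 gene, 1 point per library. Lower panel: the percentile of that fold among the start peaks of the same list. Crosses under the line at 0 mark lists without a start peak. Ces1a has crosses in all 6 lists and Ces1g in both MSM lists and F1 MB, and the MSM points of Ces1b, 4.93 and 8.06, stand above the B6 points, 3.47 and 3.50.

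Ces1f had the highest median fold of the family. Its start peak had a fold of 11.1 in B6 replicate 1 and 4.48 in B6 replicate 2, against 9.01 and 7.42 in the MSM mice, and the hybrids had 8.77 (F1 BM) and 5.55 (F1 MB). The B6 libraries lay on either side of both MSM libraries, so the strains overlapped. The value of MSM replicate 2 came from an intronic peak 503 to 1414 bp downstream, its peak next to the start (4 to 437 bp) had a fold of 4.53, and each of the other lists had a single peak across both stretches. In limma on the quantile-normalised log2 fold the difference (MSM minus B6) was 0.27 ± 0.32 (SE, n = 2 and 2, adjusted p = 0.887), and it was −0.01 without B6 replicate 2.

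Ces1d, the hepatic triacylglycerol hydrolase that mobilises stored lipid for very-low-density lipoprotein, followed with a median of 6.27. Its folds were 11.0 and 4.65 in B6, 5.95 and 9.71 in MSM, and 6.58 (F1 BM) and 5.40 (F1 MB) in the hybrids. The spread within each strain was larger than the difference between strains, and the libraries overlapped. The limma difference was 0.12 ± 0.33 (SE, n = 2 and 2, adjusted p = 0.961), and its sign turned without B6 replicate 2 (−0.13) or without MSM replicate 2 (−0.19).

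Ces1c, the esterase that mice secrete into plasma, where it cleaves ester drugs, had a median of 6.15. Its folds were 8.88 and 6.01 in B6, 5.37 and 5.71 in MSM, and 6.30 (F1 BM) and 6.48 (F1 MB) in the hybrids. Both B6 libraries stood above both MSM libraries, and by fold both hybrids lay in between the B6 extremes. By percentile among the start peaks of a list the hybrids, at 88.6 (F1 BM) and 72.5 (F1 MB), were above both B6 libraries (68.4 and 70.0). The strains overlapped in −log10 q, with 32.5 and 15.5 in B6 and 17.7 and 19.5 in MSM, and in covered length, with 3146 and 1588 bp in B6 and 2570 and 2553 bp in MSM (exact permutation p = 1 for each). The B6 mean was 7.44 ± 2.03 and the MSM mean 5.54 ± 0.239 (SD, n = 2 each), which differ by −1.90 with an exact two-sided permutation p of 0.333, which is the smallest that 2 against 2 libraries can give. It was −0.47 without B6 replicate 1 and −3.34 without B6 replicate 2. The limma difference was −0.35 ± 0.31 (SE, adjusted p = 0.840).

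Ces1e, known as egasyn for holding beta-glucuronidase in the endoplasmic reticulum, had lower folds. The strongest peak within 1 kb of the start had 6.44 and 4.02 in B6, 5.71 and 4.43 in MSM, and 4.53 (F1 BM) and 4.84 (F1 MB) in the hybrids. These values set different peaks against each other, since the B6 values came from a second peak in an intron, 552 to 1284 bp downstream, and the MSM values from the peak next to the start. At the peak next to the start the folds were 5.58 and 3.26 in B6 and 5.71 and 4.43 in MSM. The strains overlapped in both comparisons of fold. In covered length they did not, with 1149 and 702 bp in B6 and 337 and 597 bp in MSM (exact permutation p = 0.333). The limma fit used the strongest peak of each library, whichever of the 2 it was, and its difference was 0.06 ± 0.31 (SE, n = 2 and 2, adjusted p = 0.979). It was −0.02 with no normalisation, −0.01 with the same number of peaks in each list, and −0.12 without MSM replicate 1.

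Ces1b had the lowest median fold of the 5 genes with a start peak in every list. With all 4 parental libraries it also had the widest gap between the strains in mean fold. It lost that rank without either B6 library or without MSM replicate 2. Its folds were 3.47 and 3.50 in B6, 4.93 and 8.06 in MSM, and 4.46 (F1 BM) and 4.15 (F1 MB) in the hybrids. The peaks of the B6 libraries did not overlap each other, at 69 to 449 bp downstream in B6 replicate 1 and 563 to 812 bp in B6 replicate 2, so their mean pools separate stretches. Both MSM libraries were above both B6 libraries, and by fold both hybrids lay between the strains. By percentile among the start peaks of a list, F1 BM (65.7) lay within the MSM values (32.0 and 77.5), and its −log10 q of 21.0 and covered length of 1616 bp were above those of both MSM libraries. The B6 mean was 3.49 ± 0.0236 and the MSM mean 6.50 ± 2.21 (SD, n = 2 each), which differ by 3.01 with an exact permutation p of 0.333. MSM replicate 2 carried much of this, since the difference was 1.45 without it and 4.58 without MSM replicate 1. In limma the log2 difference was 0.88 ± 0.34 (SE), with an unadjusted p of 0.0159 and an adjusted p of 0.564. It was 0.55 without MSM replicate 2 and 0.56 without B6 replicate 1, and 1.16 without B6 replicate 2 and 1.21 without MSM replicate 1. The covered length of its window moved the same way, with 381 and 250 bp in B6 and 746 and 1456 bp in MSM. Ces1b was also the weakest call in B6, with −log10 q of 4.99 and 4.21 against 11.4 and 18.1 in MSM, so that with only peaks of −log10 q of at least 5 it had a start peak in both MSM and neither B6 library.

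Ces1g, an esterase tied to hepatic and circulating lipid levels in mice, was the member whose start peak was present in 1 strain only. The fold was 4.84 in B6 replicate 1 and 3.76 in B6 replicate 2, and 5.44 in F1 BM. Both MSM lists and F1 MB had no peak within 1 kb of the start. MSM replicate 1 still listed 2 peaks further into the gene, and MSM replicate 2 listed none. One of 7 members thus had a listed start peak in both B6 and neither MSM library, where 0.844% of all gene starts were, and 0 of 7 showed the opposite pattern, where 0.292% did. At the 185 gene starts with the pattern of Ces1g, F1 BM had a start peak at 57.8% and F1 MB at 32.4%. The list of F1 MB was shorter than that of F1 BM, and the part of list length in the missing Ces1g peak was not tested. With the same number of peaks in each parental list, and with −log10 q of at least 5, Ces1g kept its start peak in both B6 libraries. With the same covered length it was missing from B6 replicate 1.

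Over all tests by gene, no Ces1 gene passed. In limma 0 of 5579 gene starts (0%) had an adjusted p under 0.05, and 0 of the 5 members tested did. At an unadjusted p under 0.05 there were 440 gene starts (7.89%) and 1 of the 5 members, Ces1b. With no normalisation, 55 of the 5579 gene starts and 0 of the 5 members had an unadjusted p under 0.05. The libraries of the strains did not overlap in fold at 1 of 5 members with MSM higher, against 8.59% of all starts tested, and at 1 of 5 with B6 higher, against 11.2%. By percentile within the list, Ces1b was again higher in MSM (background 16.7%) and Ces1c again higher in B6 (background 18.6%). Ces1a and Ces1g were not tested, since they lacked a start peak in at least 1 parental library.

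**Figure D2:**
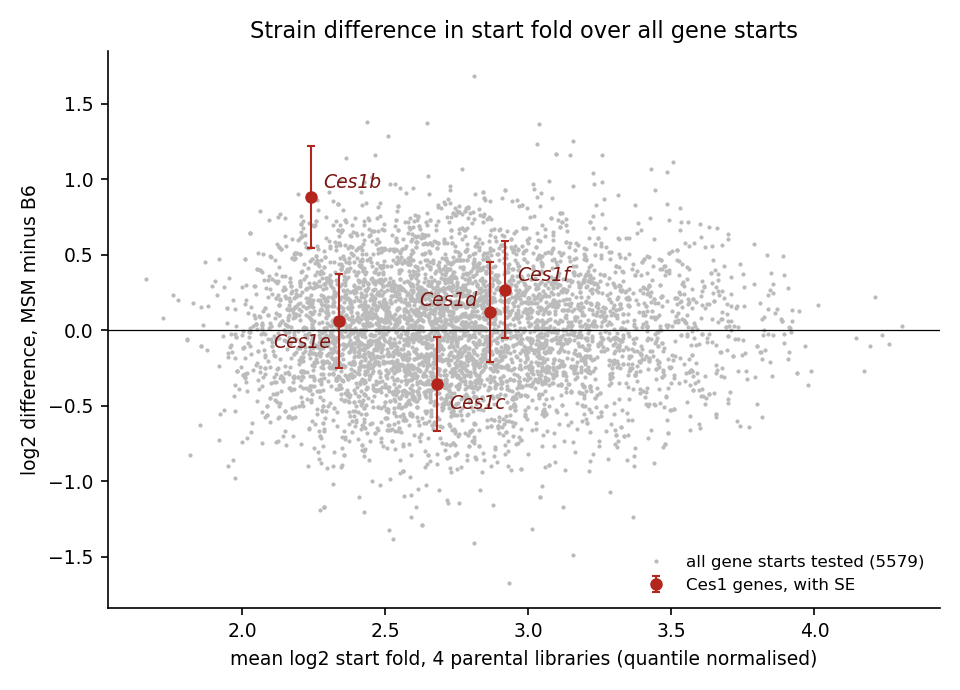
Difference in log2 start fold, MSM minus B6, against the mean over the 4 parental libraries, after quantile normalisation. Grey points are all 5579 gene starts tested and red points the 5 Ces1 genes with SE bars. Ces1b, at 0.88, lies highest of the 5, and the other 4 lie between −0.35 and 0.27.

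The percentile within each list ranked the members against all other start peaks of the same library. Median percentiles were 77.3 for Ces1f, 69.2 for Ces1c, 68.9 for Ces1d, 41.5 for Ces1e and 28.0 for Ces1b, and 18.4 for Ces1g over its 3 lists. The order was not firm, because the ranges of neighbours in it overlapped, from 35.8 to 97.0 for Ces1f and from 41.0 to 88.6 for Ces1c. Ces1b spanned the widest range, from 3.06 in B6 replicate 1 to 77.5 in MSM replicate 2. F1 BM gave the highest percentile of the 6 lists for Ces1c, Ces1d, Ces1e and Ces1f, that is for 4 of the 5 members with a peak in every list, against 16.5% of all such genes. In F1 BM these 4 stood at 88.6, 90.5, 67.3 and 97.0, and Ces1g stood at 81.3, against 18.4 and 16.0 in the B6 libraries. F1 BM was a single library, and this count was noticed in the data and has no test. By fold, F1 BM was below B6 replicate 1 at the same 4, with 6.30, 6.58, 4.53 and 8.77 against 8.88, 11.0, 6.44 and 11.1. At Ces1b, F1 BM (4.46) was below MSM replicate 2 (8.06) by fold.

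Most of the acetylation lay downstream of the starts, within the genes. The strongest start peak had its summit downstream of the start in all 33 cases over the 6 lists, between 203 and 941 bp away, where 74.6% to 79.3% of the start peaks of all genes in a list did. By median, start peaks of the Ces1 genes were also long, at 736 to 1328 bp against 463 to 723 bp for all genes. In each of the 6 lists the median of the members was the longer. Those of Ces1c, Ces1d and Ces1f were longer than the median of all genes in every list. Ces1e was shorter than it in B6 replicate 2 (436 bp), both MSM lists (337 and 359 bp) and F1 MB (263 bp). Ces1b was shorter in both B6 lists (381 and 250 bp), and Ces1g in B6 replicate 2 (274 bp). Of the 59 peaks, 40 touched a start window, 19 did not, and 3 lay outside every gene body, all upstream of a start. With positions upstream of the start written as negative, 2 of these overlapped at Ces1c, from −924 to −685 bp in B6 replicate 1 (fold of 3.56) and from −945 to −679 bp in F1 BM (3.28). The other stood at −5013 to −4786 bp from the start of Ces1e in F1 BM (2.33).

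**Figure D3:**
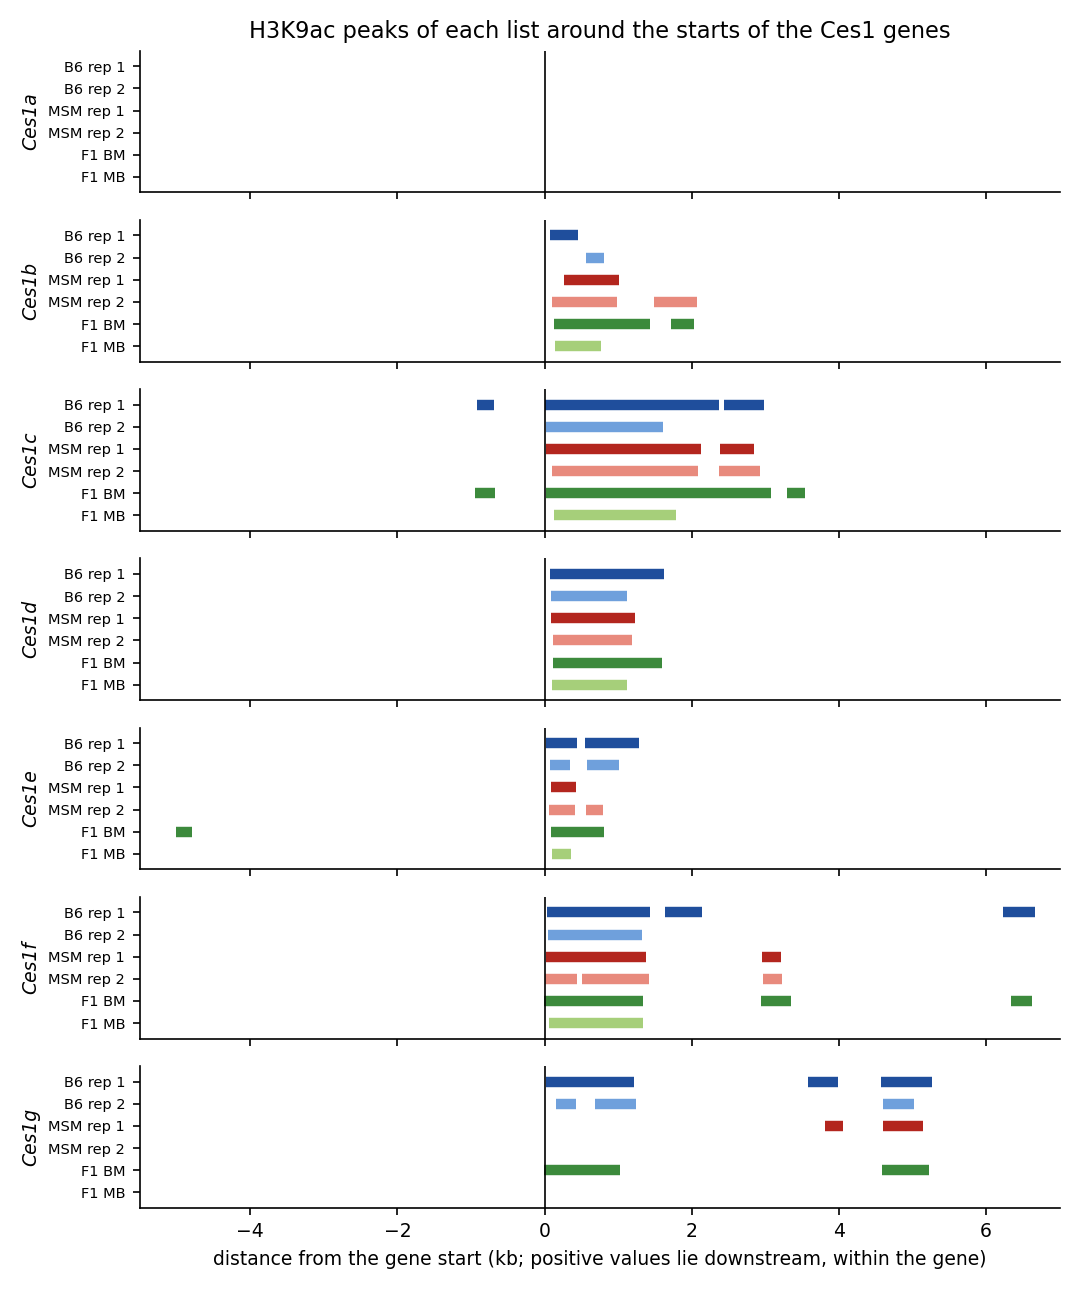
Peaks of each list around the start of each Ces1 gene, with the distance from the start in kb on the horizontal axis and 1 line per library. Bars are peaks as listed. In Ces1b to Ces1f every list has a bar downstream of the start and within 1 kb of it, bars upstream stand at Ces1c in B6 replicate 1 and F1 BM and at Ces1e in F1 BM, Ces1a has none, and Ces1g has bars at the start only in the B6 lists and F1 BM.

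The acetylated stretch of each member had its own extent. At Ces1d it reached between 1118 and 1628 bp downstream of the start over the 6 lists. At Ces1c it ran furthest, from 1605 bp in B6 replicate 2 to 3535 bp in F1 BM when peaks up to 500 bp apart were joined. At Ces1e the mark fell into a start peak and a separate intronic peak 552 to 1284 bp downstream, and that second peak, which gave the B6 values of the strongest peak, was listed in B6 replicates 1 and 2 (folds of 6.44 and 4.02) and MSM replicate 2 (2.98) but not in MSM replicate 1 or F1 MB. In F1 BM a single peak, 93 to 804 bp downstream with a fold of 4.53, overlapped the stretches of both peaks. Ces1g had further peaks 3580 to 5260 bp downstream, within the gene, in both B6 libraries, MSM replicate 1 and F1 BM, so MSM replicate 2 and F1 MB were the libraries without any peak at this gene.

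Summed over the family, the strains overlapped in the number of peaks and in the length under them, but not in the number of genes with a start peak. The lists held 13 and 9 peaks in B6, 9 and 10 in MSM, and 13 (F1 BM) and 5 (F1 MB) in the hybrids. B6 spanned the MSM values, with means of 11.0 ± 2.83 and 9.50 ± 0.707 (SD, n = 2 each, exact permutation p = 1). The length under peaks was 10859 and 6106 bp in B6, 7205 and 7301 bp in MSM, and 11300 bp (F1 BM) and 4860 bp (F1 MB) in the hybrids, out of 235542 bp of windows. The difference of −1229.5 bp was smaller than the pooled SD of 2377 bp (exact permutation p = 1), and it was 1147 bp without B6 replicate 1. The number of genes with a start peak was 6 in each B6 library and 5 in each MSM library (exact permutation p = 0.333, the smallest possible). The gene with a listed start peak in B6 and none in MSM was Ces1g.

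**Figure D4:**
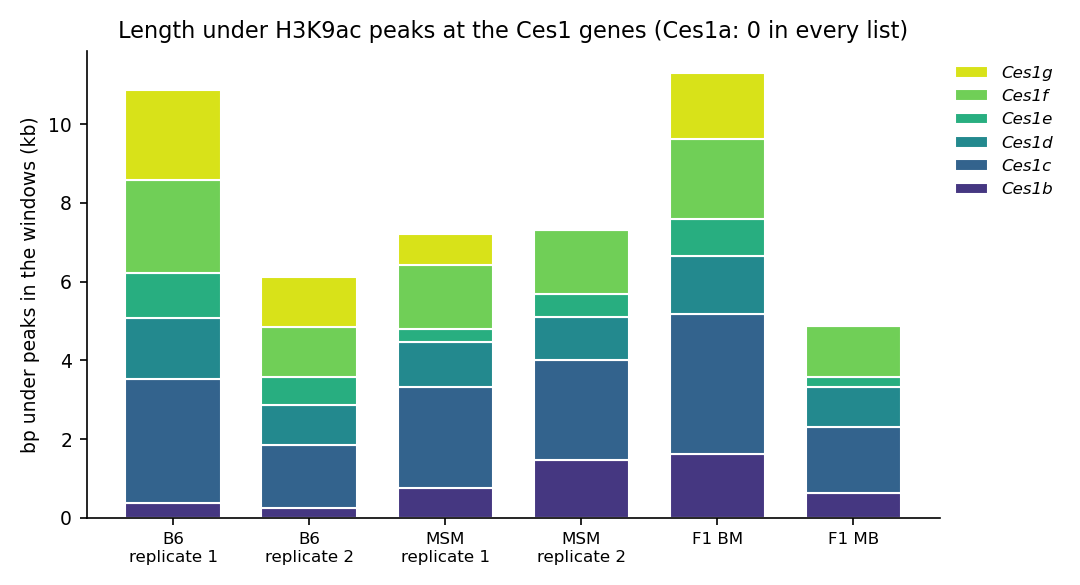
Length under H3K9ac peaks within the windows of the Ces1 genes in kb, stacked by gene, 1 bar per library. The bars of B6 replicates 1 and 2, 10859 and 6106 bp, stand on either side of the MSM bars, 7205 and 7301 bp, and Ces1g is missing from MSM replicate 2 and F1 MB.

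The peaks of the 4 parental lists merged into 15 regions in the Ces1 windows. Of these, 5 (33.3%) had a peak in all 4 libraries, as had 30.1% of all regions, and they were the start regions of Ces1b to Ces1f. One was B6-specific (both B6, neither MSM library), where 3.29% of 25803 regions over the genome were, and 1 was MSM-specific, where 3.38% were. Another 4 (26.7%) were listed in 1 library only, against 35.8% of all regions, and of these B6 replicate 1 gave 3. When B6 replicate 2 was left out, so that 1 B6 library was enough, 4 regions were B6-specific, and 29.6% of all regions were.

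The B6-specific region was the start of Ces1g, chr8:93336070-93337282, which lay 26 to 1238 bp downstream of the start over coding, untranslated and intronic sequence. The MSM-specific region was chr8:93276515-93276794, 2953 to 3232 bp downstream of the start of Ces1f, in an intron of the protein-coding transcripts that overlapped an exon of another annotated transcript of the gene. It was listed at folds of 4.67 and 4.71 in MSM replicates 1 and 2 and 3.43 in F1 BM, and in neither B6 list nor F1 MB. Its GRCm38 sequence on the minus strand, read from RefSeq, is printed because it was the only region of the family listed in both MSM and neither B6 library, and capitals mark the 1 match among the 6 motifs, the HNF1 half-site on the reverse strand.
Ces1f region (chr8:93276515-93276794): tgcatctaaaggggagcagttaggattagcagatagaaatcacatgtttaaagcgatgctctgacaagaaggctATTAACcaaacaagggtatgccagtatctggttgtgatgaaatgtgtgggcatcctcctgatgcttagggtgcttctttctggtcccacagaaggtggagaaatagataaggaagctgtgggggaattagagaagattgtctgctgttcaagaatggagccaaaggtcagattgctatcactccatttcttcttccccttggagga

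The B6 sequence of the genes was mostly distinct at the read length. Over 1 kb either side of the start, the share of 50-base words found once in GRCm38 was 100% for Ces1a and Ces1g and between 97.4% and 99.4% for Ces1b, Ces1d, Ces1e and Ces1f. It was lowest at Ces1c, with 87.3% there and 73.8% over the whole window, and 11.7% of all gene starts were at or below that value at the start. Over the first 3 kb downstream Ces1e was lowest with 83.9%, followed by Ces1c with 89.5%. The B6-specific region at Ces1g and the MSM-specific region at Ces1f were 100% unique. Differences of the MSM sequence from B6 were not measured here, and their part in the Ces1b, Ces1c and Ces1g values was not tested.

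The study concerned short B2 elements that can bound acetylated stretches, so matches to its B2 probe were located as well. With up to 2 mismatches over the 26 bases of the probe, 2 matches fell into the Ces1 windows, inside Ces1c and Ces1g. The search finds only copies that keep these letters, and other B2 copies were not located here. No member had such a match within 1 kb of its start, where 3.17% of all gene starts did, and 0 of the Ces1 peaks overlapped a match. The nearest match to a Ces1 start was 10878.5 bp downstream of the start of Ces1g.

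Other carboxylesterase genes were looked at beside the array. Of 12 such genes, 2 had a start peak in all 6 lists and 7 in none. The 2 were the liver esterases Ces3a, with folds from 4.31 to 7.83, and Ces3b, with folds from 3.84 to 9.76. Ces2a had a start peak in both B6 (8.05 and 3.56) and neither MSM library, and in both hybrids (F1 BM at 2.48 and F1 MB at 4.57). Ces2h had the opposite pattern, with 13.8 and 9.38 in MSM and 6.19 (F1 BM) and 4.55 (F1 MB) in the hybrids. Only 67.0% of the 50-base words at the Ces2h start and 88.6% at the Ces2a start were unique in GRCm38, below any Ces1 start for Ces2h and close to Ces1c for Ces2a. Unlike Ces1g, Ces2a was listed in F1 MB. Ces2e had a start peak in B6 replicate 1 alone, with a fold of 3.25.

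Genes of liver lipid handling and regulators of drug response gave a frame for these values. Of 16 genes of lipid hydrolysis and lipoprotein assembly, 10 had a start peak in all 6 lists, and Lipe, Lipc, Aadac and Cidec had none by the start of the gene record. The highest median was 12.2 for Apob, the protein of lipoprotein particles, and the lowest among the 10 was 3.72 for Dgat1, which makes triacylglycerol. Of 10 regulators, 9 had a start peak in all 6 lists and Hnf4a had none by the start of the gene record. They ran from a median of 6.37 for Nr1h4, the bile acid receptor FXR, to 13.1 for Ppara, the fatty acid receptor. None of the tested genes in either list passed in limma (lowest adjusted p = 0.709, for Nfe2l2). Among the members, Ces1f, with a median of 8.10, was the only one above the lower of these regulator values.

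The genes most like each member in start fold over the 6 libraries were found among 5166 genes by the root mean square difference of the log2 fold after subtracting the median of each library. For Ces1b they were Gsr (0.16), Magix (0.20) and Dcun1d5 (0.24). For Ces1c they were Cgnl1 (0.11), Cyp3a25 (0.13) and C4bp (0.15), of which Cyp3a25 is a drug-metabolising cytochrome P450. For Ces1d they were Pigv (0.13), Mavs (0.17) and Hipk2 (0.18). For Ces1e they were Ncln, Bag6 and Dusp1 (0.12, 0.13 and 0.14), and for Ces1f Rhobtb1, Sel1l and Shmt1 (0.17, 0.21 and 0.21). No Ces1 gene was among the closest 3 of another.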

How the data were processed

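H3K9ac ChIP-seq peak lists of 6 adult liver libraries were analysed. The sample titles gave the groups and replicate numbers, and the parental libraries came from separate mice. The authors trimmed adaptors, mapped 50 bp read pairs to mm10 and called peaks in each library separately. The submitters' processing notes name Trim Galore, HISAT2, SAMtools and MACS2, while the study's methods name Bowtie 2 with a raised maximal insert. The threshold and the use of input as control were not given in the sources used here. All reads were mapped to B6 sequence.

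The deposited fold enrichment is a linear ratio of the peak summit over the background of the authors' peak caller. The deposited −log10 p and −log10 q values are those of the authors' peak caller, and the lowest −log10 q in a list was 1.30 to 1.35. The deposited score is derived from the −log10 q and was not used. No read counts were used, so depth was not known here.

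Peaks were counted with Python 3.11.15 and numpy 2.4.6. A start peak overlapped 1 kb either side of the gene start in GENCODE M21, and the strongest by fold was kept. Single values were compared between strains with an exact permutation test (two-sided) on the 4 parental libraries. The log2 start folds of all 5579 genes with a start peak in those 4 libraries were quantile normalised and fitted in limma 3.58.1 (R 4.3.3), with Benjamini-Hochberg adjustment over all starts, after tests on simulated data. Percentiles were taken among the start peaks of a list. RefSeq sequences of GRCm38 were aligned with Biopython 1.88, and figures were drawn with matplotlib 3.10.9. The members and lists were chosen with earlier results of these data known. All 7 members were named. From the other lists the genes with the highest and lowest median fold among those with a start peak in all 6 lists and those with a start peak in 1 strain only were named, and counts of 5 or fewer genes without a peak, and Ces2e, were named after their values were seen. F1 values, with 1 library for each cross, were given with no test. Alternatives covered list length, a stricter q, other windows, joined peaks, other normalisations, a replicate block and leaving out each parental library.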

Additional observations from a re-analysis of the deposited data

Results flagged for a closer look

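A total of 3 F1 BM peaks within the Ces1 array touched no peak of a parental list, of 14 F1 BM peaks there, and 9.86% of all 20173 F1 BM peaks touched none. The first, at chr8:93127748-93127994 in an intron of Ces1c, 3289 to 3535 bp downstream of the start, had a fold of 2.94. The second, at chr8:93147130-93147573 between the windows of Ces1c and Ces1d, had a fold of 2.96. The third, at chr8:93234405-93234632, upstream of Ces1e and at the edge of its window, had a fold of 2.33. Their −log10 q values were 5.36, 3.69 and 3.29, and F1 BM was a single library.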

How the results depend on the processing

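No Ces1 gene passed a test under any alternative run, though the exact tests could not pass with these numbers of libraries. For the number of peaks, the difference (MSM minus B6) ranged from −3.5 to 0.5 when each parental library was left out, and for the covered length from −3606 to 1147 bp, both turning sign without B6 replicate 1. The difference in genes with a start peak, −1, was −0.5 with the same number of peaks, 0.5 with the same covered length and 0 with −log10 q of at least 5. B6-specific regions numbered 2 with the same number of peaks (6.31% of all regions), 0 with the same covered length (2.93%), 2 with −log10 q of at least 5 (3.19%), and 2 to 4 when a library was left out (5.20 to 29.6% of all regions). MSM-specific regions numbered 0 with the same covered length (6.11% of all regions), 3 with −log10 q of at least 5 (3.35%), and 1 to 2 when a library was left out (3.43 to 22.1% of all regions). The number of members whose strains did not overlap in start fold, 2 of 5, was 1 of 4 with the same number of peaks (17.7% of all starts), 1 of 3 with the same covered length (14.9%), 1 of 4 with −log10 q of at least 5 (19.5%), 1 of 5 by −log10 q (12.4%), and 2 to 5 when a library was left out. It was 5 of 5 without either B6 library, where 75.5 and 78.1% of all starts did not overlap, and 2 of 5 without either MSM library, where 43.5 and 42.1% did not. When each parental library was left out, the fold difference ranged from −3.14 to 3.18 for Ces1d, −1.37 to 1.05 for Ces1e and −2.84 to 3.73 for Ces1f, and the limma log2 difference from −0.19 to 0.44 for Ces1d, −0.12 to 0.25 for Ces1e and −0.0079 to 0.53 for Ces1f. By −log10 q the differences were −4.38 for Ces1d, 2.35 for Ces1e and −5.21 for Ces1f, and by percentile 2.77 for Ces1e. In limma, Ces1e was −0.016 without normalisation and −0.0052 when every list held equally many peaks. The filter on a mean fold of at least 3 removed no gene start. The cause of these changes was not tested, apart from the settings that hold fewer peaks or libraries.

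With the replicate number as a block, limma called 8 gene starts and no Ces1 gene, and the adjusted p of Ces1b was 0.452. Over the 2 pairs the mean differences (−1.5 peaks, −1229.5 bp and −1 gene) are by arithmetic those without the block, and the smallest p of an exact sign-flip test is 0.5. The numbers pair nothing in the labels, and the deviations of same-numbered libraries had a correlation of −0.0226 over 5579 gene starts.

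With 2 libraries in a strain and 1 for each cross, precision was low, and an unlisted peak is not an absent mark. The fits without a library leave a lone library in its strain, assumed to vary like the others. Ces1a and Ces1g had no limma fit, Ces1b had no fit with fewer or stricter peaks, and Ces1e had none with the same covered length, because a parental library then had no start peak.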
